A study of Mus musculus with 10 samples.

Results

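The 38 genes described here are markers of macrophages, of monocytes or neutrophils, and of dendritic cells, picked by name from the 53656 genes of the deposited count tables. All 38 were found in the tables. They were sorted by role into 16 macrophage genes, 13 monocyte or neutrophil genes and 9 dendritic cell genes, although several are used by more than one of these cell types. Their levels were measured by RNA sequencing in 10 libraries, 6 TOX KO and 4 TOX WT, of CD4 T cells with the SMARTA transgene, which encodes a T cell receptor for the GP61 peptide. KO donor cells carried Ly5.1 and were sorted as CD4+, Ly5.1+, Ly5.2-, PD1lo, LAG3lo and CD39lo. WT donor cells carried Ly5.1 and Ly5.2 and were sorted as CD4+, Ly5.1+, Ly5.2+, PD1hi, LAG3hi and CD39hi. In both groups naive cells were given to B6 mice that had been treated with cytoxan and bore B16-GP61 melanoma, a tumour line carrying the peptide, and were taken from the tdLN (tumour-draining lymph node) on day 11. Genotype, congenic marker and gate differ together, so their effects cannot be told apart. The labels do not tie replicates to animals, and p-values therefore measure the spread between these libraries.

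Macrophages, monocytes, neutrophils and dendritic cells are phagocytes of the myeloid and dendritic lineages. In a lymph node, resident macrophages line the sinuses and clear particles and dying cells, and dendritic cells present antigen to T cells. CD4 T cells are not known for the complement, lysozyme and myeloid receptor genes that define these phagocytes. Both sorts required CD4 and Ly5.1, and host B6 cells lack Ly5.1. The sorts differed in Ly5.2, which the KO gate excluded and the WT gate required, and whether they excluded other cells alike was not tested. Carry-over of host cells was not tested in either group. In bulk libraries, fewer cells of a type and less RNA per cell cannot be told apart.

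Total counts ran between 36028980 and 55784453 in KO and between 31939816 and 45481478 in WT. Tox had 15.3 to 68.0 CPM (the count scaled to a common library total) in KO and 170 to 357 CPM in WT, with no overlap (adjusted p = 0.010 by the quasi-likelihood test of edgeR with Benjamini-Hochberg adjustment). Summed over 15 T cell markers, the level was 15750 to 20360 CPM in KO and 9172 to 14170 CPM in WT, and every marker was detected. WT replicate 1 stood apart from the other WT libraries, with 14365 genes detected against 19101 to 19775 in WT replicates 2 to 4, and KO libraries held 15163 to 17304. That library is the only WT one among library numbers 1 to 3, and values without it are given where leaving it out changed a call or moved the fold change of one of the 38 genes by over 1.5 times. Library numbers 2 and 6 each occur in 1 KO and 1 WT library, and the labels do not say whether such a pair shares a host.

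The myeloid and dendritic cell genes were lower in KO as a group. Their list was drawn up with earlier results of these data known, so the values over the group are a description. Together they took 0.0414 to 0.0855% of the counts in KO libraries, with a median of 0.0617%, against 0.376 to 0.964% in WT libraries, with a median of 0.413%. The groups did not overlap in that share. The mean CPM was lower in KO for 36 of the 38 genes, the exceptions being Gpnmb and Vsig4, and Vsig4 had no count in any library. In 15 of the 38 every KO library lay below every WT library, and in 0 did every KO library lie above. Over all 14214 genes tested, 6.31% had every KO library below every WT library and 2.59% every KO library above.

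**Figure D1:**
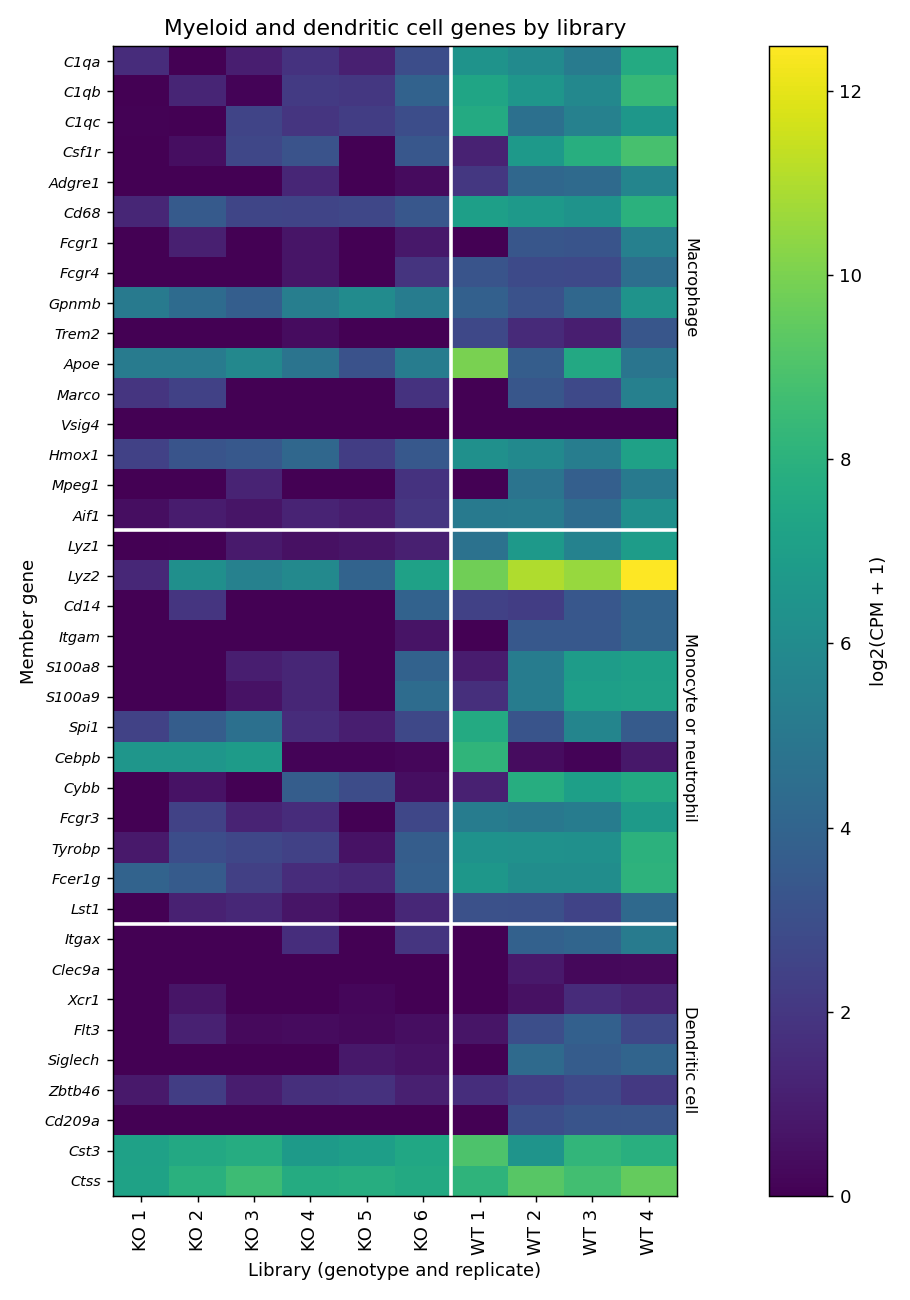
Level of each of the 38 genes (rows, ordered by role) in each library (columns, 6 KO left of 4 WT), as log2(CPM + 1) by colour. Lyz2 is the brightest row in WT, Vsig4 is at 0 in every library, and Ctss and Cst3 are high in both genotypes.

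Of the 38 genes, 35 had enough counts to be tested. The filter asked for about 0.241 CPM in 4 libraries, and 15 of the 35 reached that level in fewer than 4 KO libraries, so they were kept through WT and a count over the tested genes is a description only. In edgeR's quasi-likelihood test 8 fell in KO (Cd68, Aif1, Lyz1, Hmox1, Lyz2, Tyrobp, Fcer1g and C1qa), and 27 did not pass. None rose, and 0 of the 35 had a higher level in KO at an unadjusted p under 0.05, nor did any rise by DESeq2 or limma-voom. Across all 14214 genes 2.7% fell and 0.429% rose at the adjusted threshold, and 1017 were higher at an unadjusted p under 0.05. The median log2 fold change was -4.56 over the 35 genes and -0.12 over all genes tested. Fitted fold changes were negative for 34 of the 35, against 54.3% of all genes tested.

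**Figure D2:**
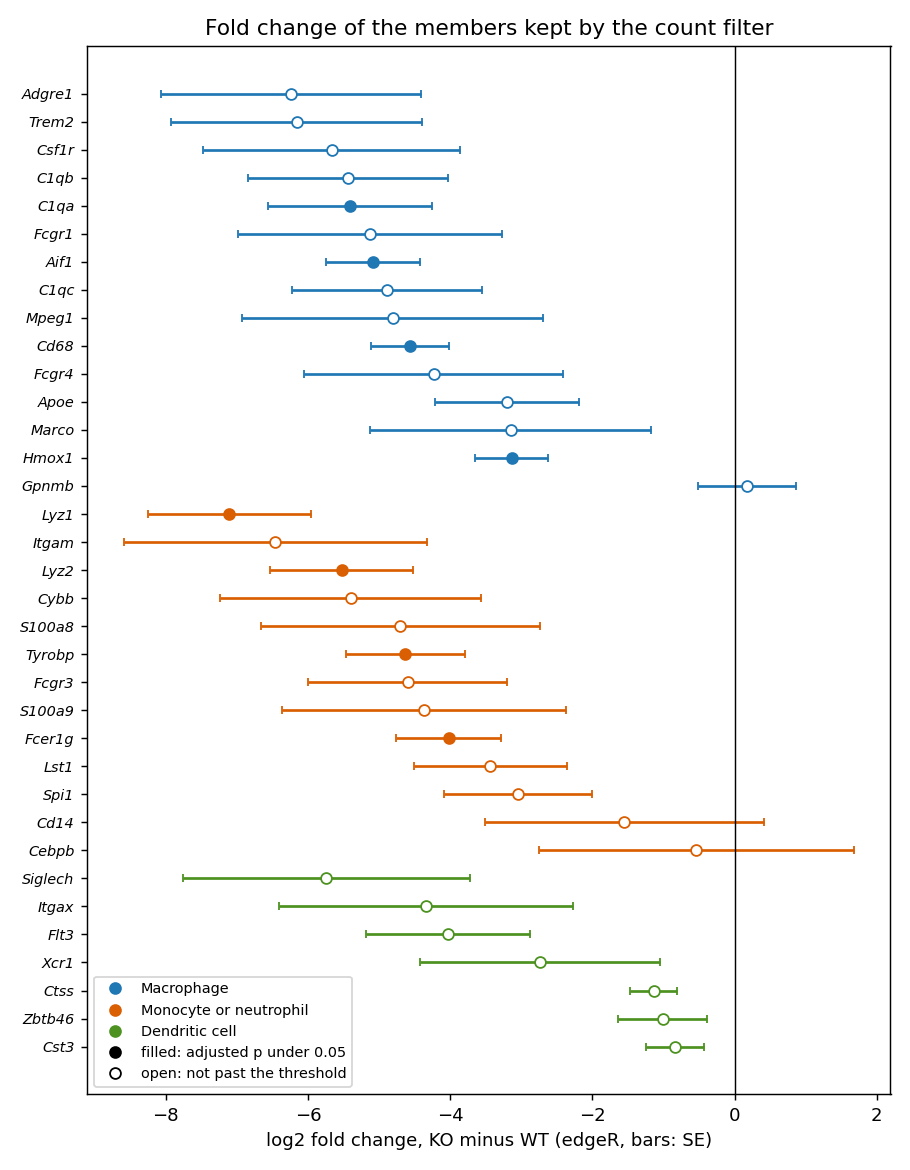
Fitted log2 fold change, KO minus WT, with its SE for the 35 tested genes, coloured by role and ordered within it. Filled points passed the threshold, from Lyz1 at -7.11 to Hmox1 at -3.13, and dendritic cell genes hold no filled point.

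How many genes passed depended on 2 WT libraries, and so did the share of all genes that passed. Without WT replicate 1, 17 fell, against 7.9% of all genes tested, and without WT replicate 4, 4 fell (Cd68, Hmox1, Aif1 and Lyz1), against 0.977%. Without WT replicate 1, every KO library lay below all remaining WT libraries for 29 of the 38 genes, against 16% of all genes tested. Within library numbers 4 to 8, with 3 KO and 3 WT libraries, 13 fell, against 7.18% of all genes tested, while Tyrobp was no longer called (adjusted p = 0.055 by edgeR). DESeq2 called 21 lower, against 7.03% of all genes.

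Among the macrophage genes 4 fell in KO (C1qa, Cd68, Hmox1 and Aif1), and 11 of the 15 tested did not pass (edgeR). The median log2 fold change of those tested was -4.89. In 9 of all 16 every KO library lay below every WT library. Over all genes tested, 2.7% fell and 6.31% were separated in that way. Cd68, a glycoprotein of lysosomes and endosomes in macrophages, lies on GRCm38 chromosome 11 at 69664213 to 69666153, minus strand. It had 1.5 to 10.5 CPM in the 6 KO libraries, with a median of 5.14 CPM, against 133, 105, 83.4 and 253 CPM in WT replicates 1 to 4. Every KO library was below every WT library. The means were 6.09 ± 3.28 CPM in KO (SD, n = 6) and 144 ± 75.9 CPM in WT (SD, n = 4), a log2 change of -4.56 with an SE of 0.55 (adjusted p = 0.0023, edgeR).

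Aif1, which encodes the calcium-binding protein Iba1 of macrophages and microglia, had 0.369 to 2.91 CPM in KO, with a median of 0.963 CPM, against 33.2, 35.7, 20.0 and 74.5 CPM in WT replicates 1 to 4. The groups lay far apart, and the difference was -5.09 on the log2 scale (SE 0.66, adjusted p = 0.0031 by edgeR). Hmox1, haem oxygenase 1, which breaks down haem and is high in macrophages that clear red cells, had 3.83 to 17.1 CPM in KO, with a median of 9.07 CPM, against 74.9, 59.4, 38.5 and 139 CPM in WT. It too showed no overlap, with a smaller log2 fold change of -3.13 (SE 0.51, adjusted p = 0.0097 by edgeR). The calls on Cd68, Aif1 and Hmox1 held without any 1 library, with adjusted p up to 0.011, 0.016 and 0.041.

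The C1q genes encode the chains A, B and C of the complement protein that starts the classical pathway, and they lie side by side on GRCm38 chromosome 4, all on the minus strand. C1qb spans 136880129 to 136886187, C1qc 136889804 to 136893065 and C1qa 136895917 to 136898803. C1qa had 0 to 6.67 CPM in KO, with a median of 1.55 CPM, against 83.7, 62.3, 35.2 and 199 CPM in WT replicates 1 to 4. All KO libraries were below all WT libraries, a log2 change of -5.41 with an SE of 1.15 (adjusted p = 0.031, edgeR). This call was lost in 6 of the 10 fits that left out 1 library, with adjusted p up to 0.12. C1qb had 0 to 14.3 CPM in KO, with a median of 2.27 CPM, against 161, 93.7, 55.0 and 333 CPM in WT, also without overlap. It did not pass (log2 change -5.44, SE 1.40, adjusted p = 0.069 by edgeR), and it fell without WT replicate 1 (-5.43, adjusted p = 0.045). C1qc averaged 3.06 ± 2.69 CPM in KO, against 91.0 ± 78.7 CPM in WT (SD, n = 6 and n = 4) and did not pass either (log2 change -4.89, adjusted p = 0.086 by edgeR, and -4.15, adjusted p = 0.068, without WT replicate 1). Within library numbers 4 to 8 all 3 chains fell (adjusted p = 0.028 for C1qa, 0.035 for C1qb and 0.025 for C1qc by edgeR).

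**Figure D3:**
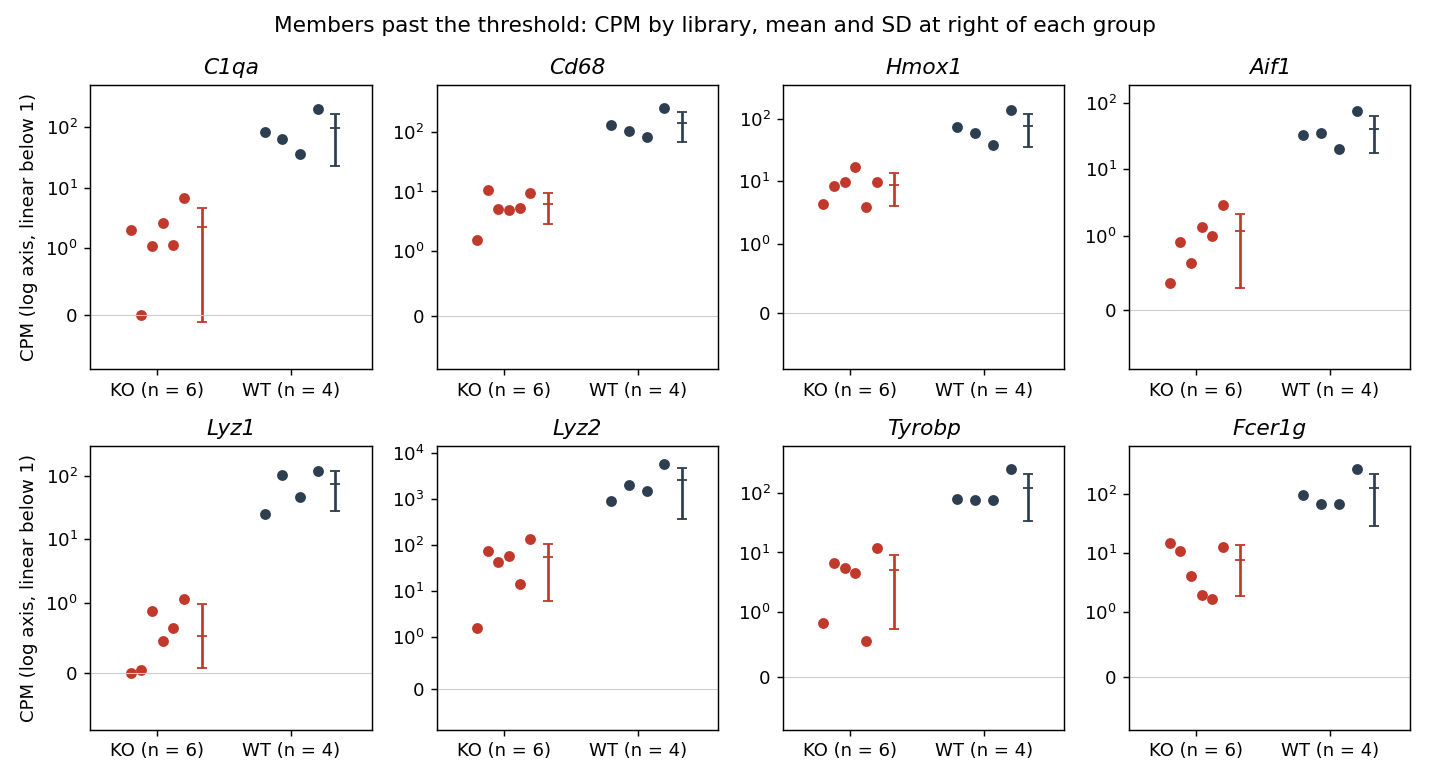
CPM of the 8 genes that passed the threshold in each KO library (left) and WT library (right), with mean and SD beside each group; the axis is logarithmic above 1 CPM and linear below. In every panel the highest KO library is below the lowest WT library.

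Csf1r, the receptor for the growth factor that macrophages need to survive, had 0 to 9.56 CPM in KO, with a median of 2.78 CPM, against 1.31, 106, 226 and 463 CPM in WT replicates 1 to 4. WT replicate 1 lay inside the KO range, and the difference did not pass (log2 change -5.67, SE 1.81, adjusted p = 0.14 by edgeR). Without WT replicate 1 Csf1r fell (-6.08, adjusted p = 0.043 by edgeR). Its exons share 17.8% of their bases with Hmgxb3, a gene of the opposite strand, and strand was not used in counting. Adgre1, which encodes the macrophage surface protein F4/80, had no overlap of groups, while Fcgr1, the high-affinity IgG receptor, was at 0 in WT replicate 1. Adgre1 averaged 0.295 ± 0.599 CPM in KO, against 22.4 ± 20.0 CPM in WT, and Fcgr1 averaged 0.430 ± 0.493 CPM in KO, against 15.1 ± 19.1 CPM in WT (SD, n = 6 and n = 4). Neither passed with all libraries (adjusted p = 0.11 for Adgre1 and 0.18 for Fcgr1 by edgeR), and both fell without WT replicate 1 (0.044 and 0.046). Fcgr4, an activating IgG receptor, Trem2, a lipid-sensing receptor of macrophages, Marco, a scavenger receptor, and Mpeg1, which encodes the pore protein perforin-2, had log2 changes of -4.23, -6.16, -3.15 and -4.81 and did not pass (adjusted p = 0.26, 0.10, 0.44 and 0.27 by edgeR). Marco and Mpeg1 were at 0 in WT replicate 1.

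Gpnmb did not follow the rest in direction, and Apoe varied widely between WT libraries. Apoe, the lipid carrier apolipoprotein E, had 7.86 to 55.6 CPM in KO, with a median of 36.0 CPM, against 997, 11.8, 183 and 28.0 CPM in WT replicates 1 to 4. The groups overlapped, since WT replicates 2 and 4 fell within the KO range, and the difference did not pass (log2 change -3.20, SE 1.01, adjusted p = 0.13 by edgeR). Without WT replicate 1, its highest library, the log2 change was -1.16 (adjusted p = 0.33 by edgeR). Gpnmb, a lysosomal glycoprotein of lipid-loaded macrophages that melanocytes and melanoma cells also express, had 12.5 to 63.0 CPM in KO, with a median of 35.6 CPM, against 13, 7.76, 17.1 and 83.2 CPM in WT. It was the single tested gene of the 35 with a positive fold change (0.18, SE 0.69, adjusted p = 0.92 by edgeR), and the sign turned in 5 of 27 alternative fits. Summed over 7 melanoma markers that do not include Gpnmb, the level was 2.5 to 6.95 CPM in KO and 0 to 8.81 CPM in WT.

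Among the monocyte or neutrophil genes 4 fell (Lyz1, Lyz2, Tyrobp and Fcer1g), and 9 of 13 did not pass (edgeR). Their median log2 fold change was -4.60, and in 6 of the 13 every KO library lay below every WT library. Over all genes tested, 2.7% fell and 6.31% were separated in that way. Lyz2, the lysozyme of mouse macrophages, monocytes and neutrophils, was the most abundant of the 38 genes in WT, at 1933 CPM per kilobase of exon, against 41.9 CPM per kilobase in KO. By library it had 1.59 to 139 CPM in KO, with a median of 50.6 CPM, against 887, 2033, 1521 and 5737 CPM in WT replicates 1 to 4. All KO libraries were below all WT libraries (log2 change -5.53, SE 1.002, adjusted p = 0.016 by edgeR). Lyz1, its neighbour, which in mice is known as the lysozyme of Paneth cells of the gut, had 0 to 1.15 CPM in KO, with a median of 0.548 CPM, against 24.8, 104, 46.0 and 119 CPM in WT. Its fold change was the most negative among the 8 calls (-7.11, SE 1.14, adjusted p = 0.0092 by edgeR). Lyz1 (117287797 to 117292868) and Lyz2 (117277331 to 117282321) lie next to each other on the minus strand of GRCm38 chromosome 10.

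The lysozyme genes are close copies, so their reads are partly shared. Their longest coding transcripts in GENCODE M21 were 92.0% identical over the alignment, and 15.4% of the 50-base stretches of Lyz2 also occurred in another gene. Reads that match both genes equally were not counted, and some reads of one may have been placed on the other. Lyz1 had 0.0208 to 0.0511 counts for each count of Lyz2 in WT libraries. The stretch of 250 bases before each gene's start is shown here to set the copies side by side (RefSeq, GRCm38.p6, both on the minus strand, chr10:117292869-117293118 for Lyz1 and chr10:117282273-117282522 for Lyz2, written 5′ to 3′ along the gene). No base is in capitals, since the motif searched below was not in these windows.
Lyz1: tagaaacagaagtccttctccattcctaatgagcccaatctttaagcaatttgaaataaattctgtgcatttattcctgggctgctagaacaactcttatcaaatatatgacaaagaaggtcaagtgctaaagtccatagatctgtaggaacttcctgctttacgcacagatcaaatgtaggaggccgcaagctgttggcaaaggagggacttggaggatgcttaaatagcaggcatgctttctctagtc
Lyz2: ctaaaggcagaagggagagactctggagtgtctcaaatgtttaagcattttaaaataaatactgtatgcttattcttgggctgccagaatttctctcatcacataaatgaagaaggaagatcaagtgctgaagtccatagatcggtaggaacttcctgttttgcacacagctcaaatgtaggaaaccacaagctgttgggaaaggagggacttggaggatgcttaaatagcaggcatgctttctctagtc
The stretches matched at 200 of 252 aligned positions, and the last 50 bases before the start were identical. Of the Lyz2 window, the 49 bases next to the start lie inside the gene as annotated for counting, and of the Lyz1 window 0 do.

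Tyrobp and Fcer1g encode the adaptor proteins DAP12 and FcRγ, which pair with activating receptors of myeloid cells and carry the signal inward. Tyrobp had 0.550 to 12.0 CPM in KO, with a median of 4.89 CPM, against 81.1, 78.5, 75.9 and 257 CPM in WT replicates 1 to 4 (log2 change -4.63, SE 0.84, adjusted p = 0.016 by edgeR). Fcer1g had 1.65 to 14.9 CPM in KO, with a median of 7.55 CPM, against 97.8, 68.7, 68.1 and 269 CPM in WT (log2 change -4.02, SE 0.74, adjusted p = 0.017 by edgeR). The groups did not overlap in either gene, and WT replicate 4 was the highest library in both. Without WT replicate 4 the calls on Lyz2, Tyrobp and Fcer1g were lost (adjusted p = 0.057, 0.063 and 0.071 by edgeR). NK cells also use both adaptors, and 9 NK cell markers summed to 169 to 275 CPM in KO and 21.6 to 90.2 CPM in WT. That sum was higher in KO without overlap, but 2 of the 9 markers had every KO library below every WT library. Of the 9, 1 was at 0 in all KO libraries and 1 in all WT libraries. The part of NK cells in the level of either adaptor was not tested. Fcgr3, the low-affinity IgG receptor that signals through FcRγ, averaged 2.23 ± 2.30 CPM in KO, against 54.1 ± 39.1 CPM in WT (SD, n = 6 and n = 4) and did not pass (log2 change -4.60, adjusted p = 0.12 by edgeR). Its transcript shares 12.8% of 50-base stretches, with Fcgr2b.

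S100a8 and S100a9 encode the subunits of calprotectin, which neutrophils hold in great amounts. KO libraries held 0 to 14.3 CPM of S100a8 and 0 to 20.7 CPM of S100a9, the highest in KO replicate 6. In WT, S100a8 had 0.942 CPM in replicate 1 and 37.2 to 137 CPM in replicates 2 to 4, and S100a9 had 2.18 CPM in replicate 1 and 36.9 to 141 CPM in the others. Neither passed (log2 change -4.70 and -4.36, adjusted p = 0.25 and 0.28 by edgeR). Cybb, the catalytic subunit of the phagocyte NADPH oxidase, had 0 to 11.7 CPM in KO, with a median of 0.435 CPM, against 1.23, 216, 130 and 189 CPM in WT replicates 1 to 4. Its difference did not pass with all libraries (log2 change -5.40, SE 1.83, adjusted p = 0.16 by edgeR), and it passed within library numbers 4 to 8 (-4.80, adjusted p = 0.042 by edgeR). Itgam, the CD11b integrin chain, had at most 0.586 CPM in KO and 0 to 16.1 CPM in WT, and 68.7% of its exon bases are shared with a gene on the same strand, so its counts are uncertain. It did not pass with all libraries (adjusted p = 0.15 by edgeR) and fell without WT replicate 1, where it was at 0 (adjusted p = 0.039). Cd14, a co-receptor for bacterial lipopolysaccharide, and Lst1, a small myeloid membrane protein, had log2 changes of -1.55 and -3.43 (adjusted p = 0.72 and 0.13 by edgeR).

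Cebpb, which encodes C/EBPβ, a factor of monocyte and macrophage genes, had 93.5 to 113 CPM in the KO libraries of numbers 1 to 3 and 289 CPM in WT replicate 1. In numbers 4 to 8 it had 0.0881 to 0.180 CPM in KO and 0.107 to 0.761 CPM in WT. The difference between genotypes did not pass (log2 change -0.54, SE 2.22, adjusted p = 0.92 by edgeR; 6.99, adjusted p = 0.11, without WT replicate 1), and its exons share 20.7% of their bases with Tmem189 on the other strand. Spi1, which encodes PU.1, the factor that directs myeloid fate and is also used by B cells, had 1.04 to 23.6 CPM in KO, with a median of 5.01 CPM, against 197, 8.47, 51.2 and 10.9 CPM in WT replicates 1 to 4. The groups overlapped (log2 change -3.05, SE 1.04, adjusted p = 0.16 by edgeR), and without WT replicate 1 the log2 change was -1.54 (adjusted p = 0.28).

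The PU.1 core motif was looked up in the promoters because Spi1 is one of the genes and PU.1 acts on many of the others. RefSeq promoters (GRCm38.p6, 250 bases before to 50 after the start) were matched for 30 of the 38 genes, with 33 promoters. GAGGAAGT, searched on both strands with no other motif searched, was present in 4 of these 33, those of C1qc, Fcgr4, S100a8 and Ctss, and in 3.20% of all 32851 promoters of the same length. In Ctss it lay after the start. The 250 bases before the start of the other 3 genes are shown with the motif, which in each is on the opposite strand and so reads as its reverse complement, in capitals (chr4:136892915-136893164, minus strand; chr1:171018676-171018925, plus strand; chr3:90668821-90669070, plus strand; written 5′ to 3′ along the gene).
C1qc: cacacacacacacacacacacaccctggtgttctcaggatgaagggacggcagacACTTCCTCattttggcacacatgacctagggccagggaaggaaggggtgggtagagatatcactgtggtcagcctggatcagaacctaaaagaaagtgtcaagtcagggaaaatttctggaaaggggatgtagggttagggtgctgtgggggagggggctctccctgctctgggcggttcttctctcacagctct
Fcgr4: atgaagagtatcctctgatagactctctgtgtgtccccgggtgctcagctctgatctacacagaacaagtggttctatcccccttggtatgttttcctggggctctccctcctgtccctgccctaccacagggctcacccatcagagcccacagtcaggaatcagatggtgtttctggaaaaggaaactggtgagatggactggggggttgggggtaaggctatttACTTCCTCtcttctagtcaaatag
S100a8: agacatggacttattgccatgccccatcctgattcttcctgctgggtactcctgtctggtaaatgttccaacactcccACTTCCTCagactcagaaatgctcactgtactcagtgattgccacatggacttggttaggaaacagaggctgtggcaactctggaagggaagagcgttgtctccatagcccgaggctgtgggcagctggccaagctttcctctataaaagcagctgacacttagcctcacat
The motif began 195 bases before the start in C1qc, 24 bases in Fcgr4 and 172 bases in S100a8. The 151, 6 and 93 bases of the windows of C1qc, Fcgr4 and S100a8 that are nearest the start lie inside the gene as annotated for counting, and the motif lies outside them. None of the 3 genes was among the 8 that fell in KO. A match is a description of the letters and says nothing of binding.

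No dendritic cell gene passed edgeR's threshold. Of 7 tested, 3 were lower in KO at an unadjusted p under 0.05, 2 fell by DESeq2 (Flt3 and Ctss), 0 by limma-voom and 5 by limma-voom with quality weights. Over all 14214 genes, 1537 were lower in edgeR at an unadjusted p under 0.05. DESeq2 called 7.03% of all genes lower, limma-voom 4.78%, and limma-voom with quality weights 19.5%. The median log2 fold change of the 7 was -2.74. No dendritic cell gene separated all KO from all WT libraries. Without WT replicate 1, 6 of the 9 did so, against 16% of all genes tested. Ctss, the cathepsin that trims the invariant chain in antigen-presenting cells, B cells among them, had 144 to 377 CPM in KO, with a median of 212 CPM, against 276, 597, 416 and 736 CPM in WT replicates 1 to 4. WT replicate 1 lay within the KO range (log2 change -1.14, SE 0.33, adjusted p = 0.11 by edgeR), and without that library Ctss fell (-1.34, adjusted p = 0.023 by edgeR). Cst3, the secreted protease inhibitor cystatin C, had 112 to 212 CPM in KO, with a median of 157 CPM, against 515, 86.9, 298 and 233 CPM in WT. The groups overlapped, and it did not pass (log2 change -0.84, SE 0.41, adjusted p = 0.31 by edgeR).

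Few counts in KO fell on Itgax, Flt3, Siglech and Cd209a. Itgax, the CD11c integrin chain, had 0 to 2.77 CPM in KO, with a median of 0 CPM, against 0.0242, 13.6, 16 and 35.9 CPM in WT replicates 1 to 4 (log2 change -4.34, SE 2.07, adjusted p = 0.30 by edgeR). Here WT replicate 1 lay with the KO libraries. Flt3, the growth factor receptor of dendritic cell precursors, averaged 0.397 ± 0.429 CPM in KO, against 6.55 ± 5.29 CPM in WT, and Siglech, a receptor of plasmacytoid dendritic cells, averaged 0.208 ± 0.328 CPM in KO, against 11.3 ± 8.16 CPM in WT (SD, n = 6 and n = 4). They did not pass with all libraries (adjusted p = 0.10 for Flt3 and 0.17 for Siglech by edgeR), and both fell without WT replicate 1 (adjusted p = 0.029 and 0.046 by edgeR). Cd209a, a lectin of monocyte-derived dendritic cells, was without a count in KO and had 867 counts in WT, all outside WT replicate 1. Its KO level was therefore lower by at least 517-fold, taking a floor of 3 counts for all KO libraries together, a limit that covers counting error only. Without WT replicate 1 Cd209a passed the count filter, through the WT libraries alone, and was called lower (adjusted p = 0.0061 by edgeR). As it had no count in KO, that call is a description only.

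Clec9a, a receptor of cross-presenting dendritic cells that senses dead cells, had no count in KO and 44 counts in WT, lower in KO by at least 26.2-fold with the same floor. Of the 44 counts, 28 came from WT replicate 2, and without that library the bound was 12.1-fold. Xcr1, a chemokine receptor of the same cells, averaged 0.139 ± 0.262 CPM in KO, against 0.945 ± 0.869 CPM in WT, and Zbtb46, a factor of conventional dendritic cells, averaged 1.89 ± 1.14 CPM in KO, against 3.80 ± 1.56 CPM in WT (SD, n = 6 and n = 4). Neither passed (adjusted p = 0.43 for both by edgeR).

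Per kilobase of exon, the order of levels differed between the genotypes. In KO the highest means were Ctss at 169, Cst3 at 125, Lyz2 at 41.9, Cebpb at 33.3 and Apoe at 15.5 CPM per kilobase, where the Cebpb mean joins the 3 libraries of numbers 1 to 3 with 3 that had at most 0.180 CPM. In WT they were Lyz2 at 1933, Ctss at 373, Cst3 at 224, Tyrobp at 185 and S100a9 at 149 CPM per kilobase. Lyz2 alone took 0.330 to 18.8% of the counts on the 38 genes in KO libraries and 21.4 to 57.8% in WT libraries. KO libraries were thus led by the broadly used genes Ctss and Cst3.

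**Figure D4:**
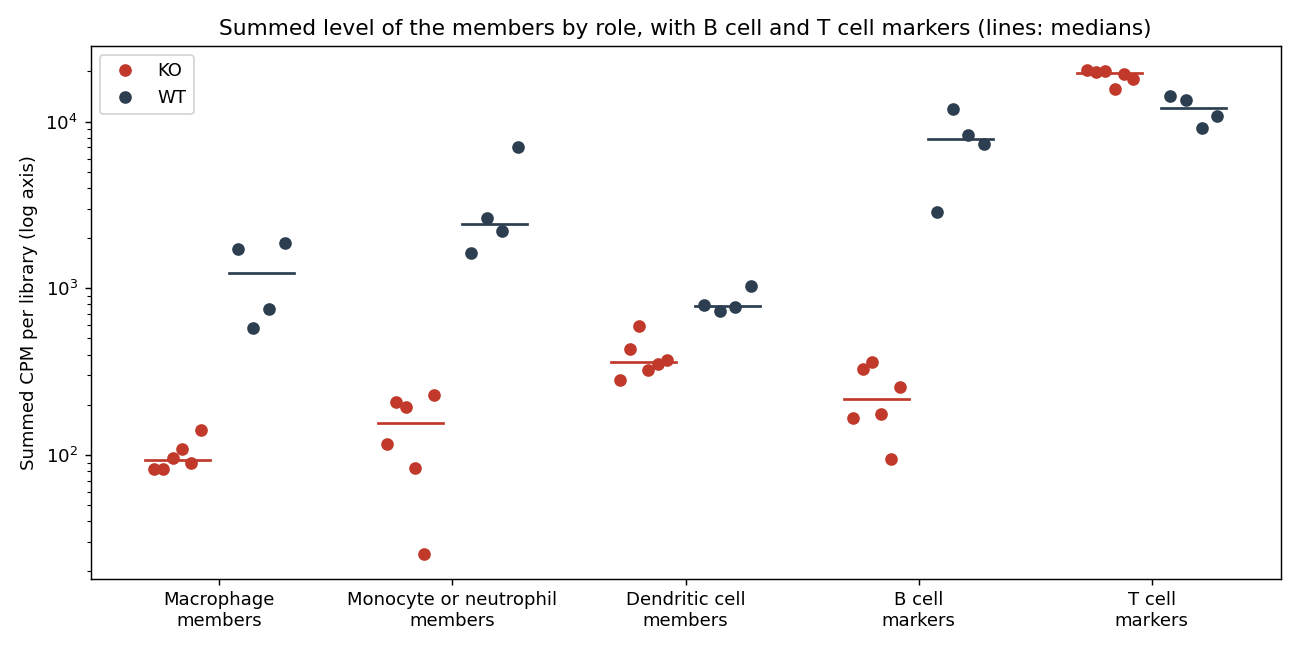
Summed CPM per library of the macrophage, monocyte or neutrophil and dendritic cell genes, with 14 B cell and 15 T cell markers, on a log axis; KO (n = 6) left of WT (n = 4) and a line at each median. KO lies below WT in the first 4 sums, and above WT for T cell markers.

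Markers of B cells moved with these genes. The 14 B cell markers summed to 94.5 to 361 CPM in KO and 2878 to 11960 CPM in WT. In 9 of the 14 every KO library lay below every WT library, against 6.31% of all genes tested. Immunoglobulin genes took 0.0835 to 0.187% of counts in KO and 0.815 to 16.7% in WT. The macrophage genes summed to 81.9 to 141 CPM in KO and 575 to 1869 CPM in WT, and the monocyte or neutrophil genes to 25.3 to 228 CPM in KO and 1629 to 7023 CPM in WT. The dendritic cell genes summed to 283 to 590 CPM in KO and 735 to 1038 CPM in WT. Of 20 genes listed as markers of the phagocytes, 5 to 13 were at 0 in each KO library. In WT replicate 1, 7 were at 0, and in each of WT replicates 2 to 4, 1 was (Vsig4). The 20 include Lyz2, which several of these cell types use, and Gpnmb, which melanoma cells also express. The part of B cell RNA, or of any other cell type, in these differences was not tested. Stroma and endothelium markers overlapped between the genotypes, at 167 to 374 CPM summed over 11 genes in KO and 82.1 to 360 CPM in WT.

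Among WT libraries the order was not that of the summed B cell markers, but immunoglobulin and plasma cell genes were highest in WT replicate 4. Immunoglobulin genes took 0.815, 7.37, 7.66 and 16.7% of counts in WT replicates 1 to 4. The plasma cell markers summed to 823, 1946, 2300 and 5982 CPM there, and the monocyte or neutrophil genes to 1629, 2635, 2202 and 7023 CPM. Whether the 38 genes go with any of these was not tested. WT replicate 4 was the highest WT library for 26 of the 38 genes, while the B cell sum was highest in WT replicate 2, at 11960 CPM, and 7371 CPM in WT replicate 4. WT replicate 1 had the lowest B cell sum, 2878 CPM, and the second highest macrophage sum, 1713 CPM, of which Apoe gave 997 CPM. It was the lowest WT library for 19 of the 38 genes and the highest for 5.

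How far these genes differed between WT replicate 1 and the other WT libraries varied with the base composition of their transcripts. The difference between WT replicate 1 (library number 2) and the mean of the other WT libraries, on the log2(CPM + 1) scale, was 7.73 for Cebpb, 4.61 for Apoe and 3.45 for Spi1, whose longest coding transcripts have 67.2, 59.5 and 58.9% GC. It was -6.30 for Cybb, -5.46 for S100a8 and -4.56 for Mpeg1, with 42.4, 44.9 and 45.7% GC. Csf1r was an exception, at -6.60 with 54.5% GC. Across the 35 genes averaging 1 CPM or more, Pearson's r between GC content and this difference was 0.77 and Spearman's rho 0.74, and 0.69 and 0.71 without Cebpb. The genes are not independent and share 1 library on one side, so this is a description.

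**Figure D5:**
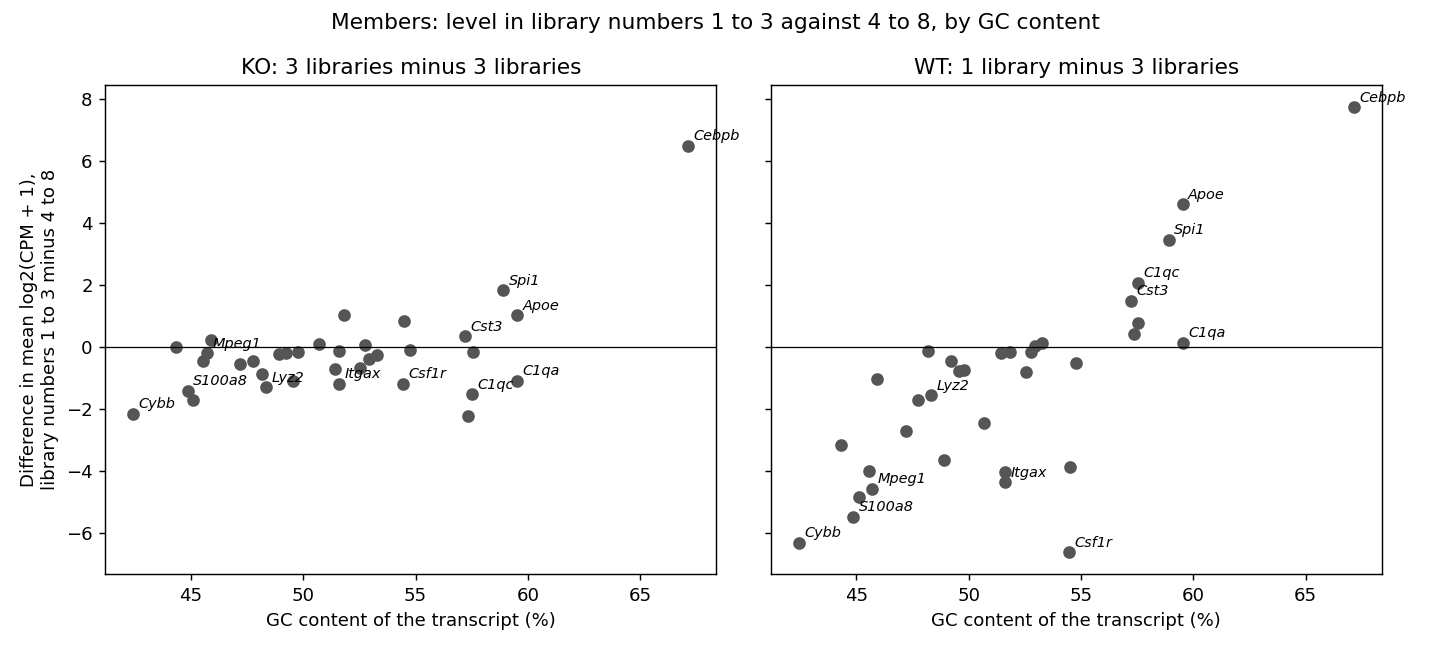
Each point is 1 of the 35 genes averaging 1 CPM or more: GC content of its longest coding transcript against its level in library numbers 1 to 3 minus that in numbers 4 to 8, as a difference in mean log2(CPM + 1), for KO (left) and WT (right). In WT, where numbers 1 to 3 hold 1 library, the difference is mostly higher at higher GC content, with Cybb at -6.30 and Cebpb at 7.73, and Csf1r lies off at -6.60.

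In KO the same split of library numbers (3 libraries against 3) gave a weaker relation. Pearson's r was 0.56 and rho 0.34 over the 35 genes, and 0.30 and 0.27 without Cebpb, which differed by 6.49. Between genotypes, GC content and the KO minus WT difference had an r of 0.25 and a rho of 0.16. Transcript length had an r of -0.44 with the split in WT and -0.12 in KO. Whether base composition plays a part in the level of any of these genes was not tested.

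Further genes of the same cell types were taken from lists drawn up beside the 38. As with the 38, many were kept through WT, with fewer than 4 KO libraries past the filter level for 12 of the 20 macrophage, 13 of the 21 monocyte or neutrophil and 8 of the 22 dendritic cell genes tested, so their counts are a description. Of 24 further macrophage genes, 20 could be tested, of which 7 fell and 0 rose in edgeR, and 13 did not pass. Their median log2 fold change was -4.64. Across all genes tested, 2.7% fell and 0.429% rose. Pld4, a lysosomal nuclease, averaged 10.1 ± 6.62 CPM in KO, against 472 ± 236 CPM in WT (log2 change -5.55, adjusted p = 0.027 by edgeR). Lgals3, the lectin galectin 3, averaged 8.87 ± 5.74 CPM in KO, against 377 ± 310 CPM in WT (-5.41, adjusted p = 0.0043 by edgeR), and Lgmn, the lysosomal protease legumain, averaged 31.2 ± 15.4 CPM in KO, against 277 ± 46.3 CPM in WT (-3.15, adjusted p = 0.0023 by edgeR; SD, n = 6 and n = 4 for each). Slamf8, a surface receptor of phagocytes, was at 0 throughout KO and had 13.7 to 59.0 CPM in WT (adjusted p = 0.0042 by edgeR). In 12 of the 24 every KO library lay below every WT library, against 6.31% of all genes tested.

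Of 21 further monocyte or neutrophil genes tested, 5 fell (Ngp, Cx3cr1, Plac8, Ifitm3 and Ly6c2), 1 rose (Nr4a1), and 15 did not pass (edgeR). The shares over all genes tested were 2.7% lower and 0.429% higher. Ngp, a granule protein of developing neutrophils, had 0 CPM in 5 KO libraries and 0.789 CPM in KO replicate 6, against 0, 83.5, 182 and 298 CPM in WT replicates 1 to 4 (log2 change -10.03, SE 2.34, adjusted p = 0.047 by edgeR). Plac8, a gene of myeloid and lymphoid cells, averaged 11.0 ± 7.31 CPM in KO, against 288 ± 169 CPM in WT, and Ifitm3, an antiviral membrane protein, averaged 7.51 ± 4.08 CPM in KO, against 134 ± 112 CPM in WT (SD, n = 6 and n = 4; adjusted p = 0.0048 and 0.0060 by edgeR). Cx3cr1, the fractalkine receptor of monocytes, averaged 0.0478 ± 0.0673 CPM in KO, against 28.8 ± 14.7 CPM in WT (adjusted p = 0.0042 by edgeR). Nr4a1, a nuclear receptor of patrolling monocytes that T cells also induce, averaged 609 ± 279 CPM in KO, against 159 ± 68.6 CPM in WT (log2 change 1.94, adjusted p = 0.031 by edgeR).

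Of 22 further dendritic cell genes tested, 6 fell, 0 rose and 16 did not pass (edgeR), with a median of -3.88. Among all genes tested, 2.7% fell and 0.429% rose. Wdfy4, needed for cross-presentation and also expressed in B cells, averaged 2.41 ± 1.96 CPM in KO, against 171 ± 112 CPM in WT, and Kmo, an enzyme of tryptophan breakdown, averaged 1.23 ± 1.38 CPM in KO, against 82.1 ± 44.6 CPM in WT (log2 change -6.14 and -6.06, adjusted p = 0.026 and 0.030 by edgeR). Cd24a averaged 4.19 ± 2.10 CPM in KO, against 121 ± 60.1 CPM in WT, and Ly6d 35.1 ± 29.0 CPM in KO, against 797 ± 148 CPM in WT. Cd24a and Ly6d, which B cells express too, had log2 changes of -4.85 and -4.51 (adjusted p = 0.0023 and 0.0054 by edgeR; SD, n = 6 and n = 4 throughout). Clec10a and Klk1, under the mean level set for naming, fell too (log2 change -8.67 and -9.72, adjusted p = 0.0096 and 0.0097 by edgeR). They averaged 0.0374 and 0 CPM in KO, against 16.55 and 2.53 CPM in WT. Wdfy4, Cd24a and Ly6d are shared with B cells, whose markers were also lower in KO. The part of B cells in these differences was not tested.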

How the data were processed

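Per the labels' protocols, Trizol-preserved cells gave cDNA by the SMART-seq v4 method, sequenced as paired 50-base reads. The authors deposited a count of read pairs for every gene name, which per the file headers came from featureCounts 1.6.2 and GENCODE M17 (GRCm38.p6), without a strand option and without counting reads that match several places. The submitters' processing notes also list STAR and FastQC.

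From the counts, genes were kept by edgeR's filterByExpr (14214 of 53656), scaled with TMM factors and tested KO against WT with genotype as the only term (edgeR 4.0.16, limma 3.58.1, DESeq2 1.42.0, R 4.3.3). Fold changes are log2, KO minus WT; the SE was derived by dividing the fold change by the root of F; p-values were adjusted by Benjamini-Hochberg over all genes tested, with a threshold of 0.05. CPM uses TMM-scaled library sizes.

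The members, their roles and all lists were chosen with earlier results of these data known. Genes described in full were those past the threshold and the 3 most abundant of each role. Other genes were named after their values were seen, except up to 4 called genes of each further list (mean at least 8 CPM). On simulated counts for this comparison over 14214 genes, the share of altered genes that was found was 0% for 2-fold changes, 16% for 4-fold, 48% for 8-fold and 60% for 16-fold ones, so genes that did not pass may have changed by several fold. No pair of replicates agreed within sampling noise.

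Alternatives were other scalings, filters, tools and thresholds, blocks by replicate or library number, a term for library numbers 1 to 3 against 4 to 8, each of these sets alone, and leaving out each library. The count of non-overlapping genes without WT replicate 1 and the fold bounds without each WT library were added after the data were seen.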

Additional observations from a re-analysis of the deposited data

Results flagged for a closer look

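Groups of 4 to 6 libraries were searched for 1 library far from the others on the log2 CPM scale, for 16 genes and the share of counts on all 38, which makes 34 groups; chance flags about 1 in 20. The search flagged 5. C1qa had a log2 CPM of -4.38 in KO replicate 2, where it had no count, against 0.16 to 2.75 in the other KO libraries. Cybb had 0.36 in WT replicate 1, against 7.02 to 7.76 in the other WT libraries. Itgax had -3.79 in WT replicate 1, against 3.77 to 5.17 in the others. Tyrobp had 8.01 in WT replicate 4, against 6.25 to 6.34 in the others. The log2 percent of counts on the 38 genes was -0.053 in WT replicate 4, against -1.41 to -1.21 in the others.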

How the results depend on the processing

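The median of the 35 tested genes stayed below 0 in every alternative, while the number called varied. Against 8 genes lower in edgeR, the count was 23 with scaling to 8 T cell receptor complex genes, 21 with DESeq2, 15 with limma-voom, 29 with limma-voom and quality weights, 4 at a threshold of 0.01, 13 in the libraries numbered 4 to 8 and 2 in those numbered 1 to 3 (Apoe and Aif1), where WT is 1 library, assumed to vary like KO. Leaving out 1 library gave 4 to 17. None was called higher in any of these settings. Over all genes, against 384 lower and 61 higher, those settings gave, in the same order, 1862 and 17, 999 and 613, 680 and 204, 2768 and 2562, 121 and 7, 1033 and 121, and 79 and 316. Leaving out 1 library gave 143 to 1201 lower and 10 to 443 higher. Leaving out immunoglobulin genes gave 222 lower, no filter 39 higher, a fold above 1.5 gave 23 higher, and the library set as a term 116 higher. Scaling to the receptor complex genes put the median of all genes at -0.92, against -0.12 with TMM, upper quartile scaling at -0.26 and limma-voom at 0.02.

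Replicate numbers did not pair the samples (correlations of deviations 0.29, -0.25, -0.22 and 0.30 for numbers 1 to 4). Library numbers 2 and 6, each held by 1 KO and 1 WT library, gave 0.32 and 0.13; with only these 2 pairs, and no label that says what a number marks, they were not taken as pairs. With replicate number as a replicate block edgeR called 0 genes lower and 0 higher, of these 38 and of all genes. At an unadjusted p under 0.05, 25 of the 35 were lower, against 1216 of all 14214 genes. With a block by library number, which leaves 1 residual degree of freedom, edgeR also called 0 and 0. At an unadjusted p under 0.05, 17 of the 35 were lower there, against 379 of all 14214 genes.

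The median of the dendritic cell genes was -2.74 and moved to -0.16 within numbers 1 to 3; in the other alternatives it ran between -4.59 (replicate block) and -1.13 (at least 1 CPM in 4 libraries). Signs turned for Csf1r within numbers 1 to 3 (0.55), for Apoe with limma-voom and quality weights (0.051), and for Cebpb with limma-voom (1.04), with quality weights (1.24), with the replicate block (3.32) and without WT replicate 1 (6.99); leaving out each other library kept its sign, with -0.94 the lowest. Within numbers 1 to 3, Fcgr1, Marco, Mpeg1 and Xcr1 also had positive values, in fits where their WT library was at 0, as did Xcr1 with the block by library number (0.68), and Gpnmb turned negative in 5 alternatives, down to -0.72 with receptor complex scaling. The causes were not tested. The medians of the 35 genes and of the macrophage and monocyte or neutrophil genes moved by less than the SD between libraries in every alternative. That SD, of the libraries' median log2 CPM over the tested genes, was 1.99, a wide yardstick. The median of the 35 ran between -6.34 (limma-voom with quality weights) and -2.90 (difference of mean log2(CPM + 1)). Genes under about 1 CPM, such as Clec9a and Xcr1, are limited by depth.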

Other observations

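Genes whose products work together were not always counted in one ratio. S100a9 had 0.992, 1.11 and 1.03 counts for each count of S100a8 in WT replicates 2 to 4, 2.31 in WT replicate 1 and 1.45 in KO replicate 6. C1qa had 0.519 to 0.665 counts for each count of C1qb in the 4 WT libraries, a narrow range beside C1qc, which had 0.247 to 1.24. In KO replicate 3 C1qb had 5 counts while C1qc had 263, and in KO replicate 1 C1qa had 70 counts while C1qb had 0. The macrophage genes together had 0.163 to 0.381 counts for each count on the dendritic cell genes in KO libraries and 0.782 to 2.16 in WT libraries.

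Erythroid and platelet markers, 9 genes, summed to 1.98 to 397 CPM in KO and 0.913 to 58.6 CPM in WT, with overlap. Mast cell and basophil markers, 8 genes, summed to 0.0849 to 1.71 CPM in KO and 0.648 to 3.94 CPM in WT. The markers of plasma cells, 8 genes, summed to 236 to 873 CPM in KO and 823 to 5982 CPM in WT, and Cd8a with Cd8b1 to 37.8 to 79.5 CPM in KO and 71.5 to 118 CPM in WT.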
